A study of Mus musculus with 4 samples.

Results

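Tet/Tet and R1 embryonic stem cells (ESCs) were compared at the CpG sites listed for both lines, 1992568 of the 6223978 sites listed in any of the study's 4 libraries. R1 cells are wild type, and Tet/Tet is the line of genotype Dnmt1 Tet/Tet that was derived from them by inserting tet-off cassettes next to the Dnmt1 promoter, after which DNMT1 is overexpressed. Both lines were grown in serum-containing ES medium with LIF, and Tet/Tet cells were also kept in puromycin and neomycin, which R1 cells did not receive, so the cassettes and the selection drugs cannot be told apart. Methylation was measured by reduced representation bisulfite sequencing (RRBS), in which DNA is cut with MspI at CCGG, treated with bisulfite and sequenced, and each CpG site receives the percent of reads that kept a cytosine. The other 2 libraries are neurons derived from the same lines and are used only as levels beside the ESC values. Each line was represented by 1 library of 1 line, so no spread between cultures was available, no test between cultures was made, and no difference below has a replicate check. The errors given are standard deviations (SD) of the difference over CpG sites, and neighbouring sites share molecules and are not replicates. The number of reads behind a site is unknown, so no interval or detection limit is given.

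CpG methylation in mammals is written by DNMT3A and DNMT3B and copied after replication by DNMT1, the maintenance enzyme. Most CpG islands, which are short CpG-rich stretches at many gene starts, are kept free of methylation, whereas most other CpGs are methylated in somatic cells. At imprinted genes a differentially methylated region is methylated on the allele from 1 parent only, so that a level near the middle is the usual state of a cell population. Many germline genes have CpG-rich promoters that are methylated in somatic cells and hold the gene silent.

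The windows of 200 bp printed here show the kinds of sequence at which the lines differed. They were taken from the mm10 (GRCm38) plus strand, with capitals marking CpGs that were listed for both lines. Mest, Peg13 and Meg3 stand for imprinted loci with more methylation in Tet/Tet ESCs, Fkbp6 and Slc25a31 for germline genes with more, Samd11 for the longest stretch with less, and Airn for an imprinted locus with less. The Mest window lies in an intron of Mest and in the antisense RNA Gm44296. The Peg13 window lies in the exon of this noncoding RNA inside an intron of Trappc9. The Meg3 window spans the start of the noncoding RNA. The Fkbp6, Slc25a31 and Samd11 windows overlap exons of those genes. The Airn window lies in introns of both Airn and Igf2r.
Mest chr6:30735284-30735483: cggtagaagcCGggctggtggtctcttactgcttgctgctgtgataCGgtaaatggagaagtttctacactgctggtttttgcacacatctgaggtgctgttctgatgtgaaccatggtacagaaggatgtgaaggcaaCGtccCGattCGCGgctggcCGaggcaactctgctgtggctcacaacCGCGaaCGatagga
Peg13 chr15:72809698-72809897: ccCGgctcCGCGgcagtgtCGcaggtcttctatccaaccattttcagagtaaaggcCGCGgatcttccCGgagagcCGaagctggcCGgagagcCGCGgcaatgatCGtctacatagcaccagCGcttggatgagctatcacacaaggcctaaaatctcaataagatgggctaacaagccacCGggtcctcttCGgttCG
Meg3 chr12:109540883-109541082: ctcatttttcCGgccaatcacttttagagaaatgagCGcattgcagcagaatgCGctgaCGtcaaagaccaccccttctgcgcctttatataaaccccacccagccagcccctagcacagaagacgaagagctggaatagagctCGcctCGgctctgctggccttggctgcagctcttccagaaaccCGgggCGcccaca
Fkbp6 chr5:135349683-135349882: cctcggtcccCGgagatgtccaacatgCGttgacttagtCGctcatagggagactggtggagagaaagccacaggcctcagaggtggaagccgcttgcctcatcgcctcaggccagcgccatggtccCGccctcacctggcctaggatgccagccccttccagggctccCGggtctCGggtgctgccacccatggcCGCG
Slc25a31 chr3:40709022-40709221: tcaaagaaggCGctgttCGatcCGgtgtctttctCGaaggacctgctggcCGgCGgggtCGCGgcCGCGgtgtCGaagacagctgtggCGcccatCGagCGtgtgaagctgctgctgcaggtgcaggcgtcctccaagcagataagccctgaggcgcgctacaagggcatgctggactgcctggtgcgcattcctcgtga
Samd11 chr4:156248885-156249084: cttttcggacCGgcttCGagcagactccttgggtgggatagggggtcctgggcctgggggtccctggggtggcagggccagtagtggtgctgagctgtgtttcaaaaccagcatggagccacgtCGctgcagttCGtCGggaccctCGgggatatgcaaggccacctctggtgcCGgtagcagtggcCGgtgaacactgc
Airn chr17:12741580-12741779: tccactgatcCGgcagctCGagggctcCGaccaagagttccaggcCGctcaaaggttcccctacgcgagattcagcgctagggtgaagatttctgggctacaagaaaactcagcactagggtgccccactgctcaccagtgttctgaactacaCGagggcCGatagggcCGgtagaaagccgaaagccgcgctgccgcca

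In the Mest window, 10 shared sites averaged 6.34% in R1 and 75.2% in Tet/Tet ESCs (SD of the site differences 32.4 points), with 9 sites higher and none lower. In the Peg13 window, 16 sites averaged 47.4% and 83.2% (SD 13), and 15 of them were higher. In the Meg3 window, 8 sites averaged 10.8% in R1 and 51.1% in Tet/Tet ESCs (SD 7.54), and all 8 were higher. The R1 values at Meg3 ran from 3.70% to 22.2% and the Tet/Tet values from 39.7% to 64.4%, so the sites of the lines did not overlap. The Fkbp6 window went from 15.9% to 47.3% over 8 sites (SD 10.9) and the Slc25a31 window from 13.6% to 39.3% over 14 sites (SD 11.2), with every site higher in both. In the opposite direction, the Samd11 window had 71.6% in R1 and 49.9% in Tet/Tet ESCs over 8 sites (SD 11.8). The Airn window had 16.5% and 2.09% over 7 sites (SD 3.08), and its R1 values of 14.1% to 19% did not overlap the Tet/Tet values of 0% to 8.59%. All sites of the Samd11 and Airn windows were lower in Tet/Tet ESCs, although the ranges overlapped at Samd11. The windows were placed where the shared sites differed, so these levels are a description.

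Over all shared sites, methylation averaged 27.3% in R1 and 28.6% in Tet/Tet ESCs, a difference of 1.37 points (SD 22.4, n = 1992568 sites), and 15.1% of sites had equal values. The mean was positive on each of the 21 chromosomes analysed, from 0.85 points on chromosome 11 to 2.16 points on chromosome X. R1 ESCs listed 2311939 sites and Tet/Tet ESCs 2936767. The 317942 sites found only in R1 averaged 46.6% and the 942394 found only in Tet/Tet averaged 47.2%, both well above the shared sites. Averaging each line over its own list gave 29.9% and 34.6%, a gap of 4.66 points that mixes sites with levels.

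The difference was small where CpGs are dense and near gene starts. Sites in CpG islands averaged 4.28% in R1 and 4.42% in Tet/Tet ESCs, a difference of 0.142 points (SD 9.20, n = 768076 sites). Sites in shores, within 2 kb of an island, differed by 0.637 points (SD 19.3, n = 171180). Sites in neither place went from 45.6% to 48.0%, a difference of 2.38 points (SD 28.8, n = 1053312). By gene part the order was the same, and starts of all annotated gene types were used here. The difference was 0.443 points within 1 kb of a start, 1.62 points in the rest of genes and 2.34 points between genes. Promoter sites and promoter tiles follow this definition. Islands inside genes were the only combination of place and context with a negative mean, -0.0672 points over 150131 sites. Promoter sites outside islands and shores went from 31.0% to 33.7%, a difference of 2.66 points (SD 24.0, n = 76554), the largest mean of the 9 combinations. Sites in soft-masked repeats, which are sequences present in many copies where short reads are harder to place, differed by 2.47 points, against 1.15 points elsewhere. Along the 5 kb to either side of protein-coding gene starts, the difference in steps of 500 bp stayed between 0.191 and 0.848 points.

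The size of single-site differences moved with the position of sites relative to MspI cuts. Inside MspI fragments of 40 to 220 bp, the size range that RRBS reads most, 1049995 sites had a mean absolute difference of 4.91 points. The 942573 sites outside them had 16.8 points. The signed difference was 1.12 points inside and 1.64 points outside, so the mean shift was present in both. Read depth could not be set beside these values, and its part in them was not tested. For the named promoters and genes that were recomputed from sites inside fragments, the value is given below where it changed the difference by more than 1.5 times. Tiles and runs were not recomputed one by one, and neither were genes named below as chosen after their values were seen, apart from Nap1l5, Nnat, Peg3, AU022751, Usp26, Otud6a and Xlr3b.

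The genome was cut into 1 kb tiles, and 103856 tiles with at least 5 shared sites were kept. They held 1443159 shared sites, 72.4% of the total. At least 10 points more methylation in Tet/Tet ESCs was found in 16856 tiles (16.2%), and at least 10 points less in 8681 tiles (8.36%). Tiles moved mainly within the middle of the scale. From under 20% in R1, 3682 tiles went to between 20% and 80% in Tet/Tet ESCs and 33 went above 80%. From above 80% in R1, 1607 went to between 20% and 80% and 20 went under 20%. From between 20% and 80% in R1, 2915 went above 80% and 3136 went under 20%. More tiles thus entered the middle range from below (3682) than left it downward (3136). Likewise, more left it upward (2915) than entered it from above (1607). In the density of tile levels, the cloud lies along the line of equal levels and spreads beyond 10 points at intermediate levels on both sides.

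**Figure D1:**
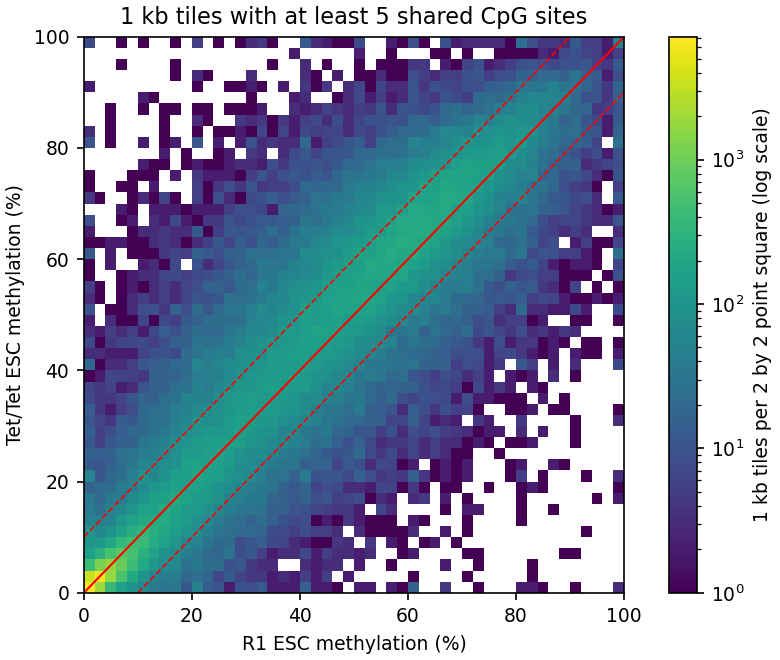
Mean methylation of 103856 tiles of 1 kb in R1 ESCs (horizontal axis, %) and Tet/Tet ESCs (vertical axis, %), with the number of tiles in each square as colour on a log scale. The solid line marks equal levels and the dashed lines mark differences of 10 points, beyond which lie 16856 tiles above and 8681 below.

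The excess of higher tiles depended on the level. Among tiles whose mean of both lines was 40% to 60%, 29.2% were at least 10 points higher and 11.4% at least 10 points lower in Tet/Tet ESCs, and the mean difference was 4.39 points. At 60% to 80% the shares were 23.7% and 10.4%. At 10% to 20% they were 11.1% and 11.4%, nearly equal, and the mean difference was -0.329 points. At 90% to 100%, which held 530 tiles, more tiles were lower (17.5%) than higher (11.1%). Tiles with a mean under 5% cannot differ by 10 points. Held to the range of 20% to 80%, promoter tiles were higher in 30.8% and lower in 9.98%, gene body tiles in 23.8% and 12.1%, and intergenic tiles in 27.0% and 11.6%. Promoter tiles thus had the smallest share of higher tiles over all levels (5.77%) and the largest within this range. Tiles with 5 to 9 sites were higher in 21.3% and tiles with at least 20 sites in 0.95%, and the latter averaged only 4.85% in R1.

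**Figure D2:**
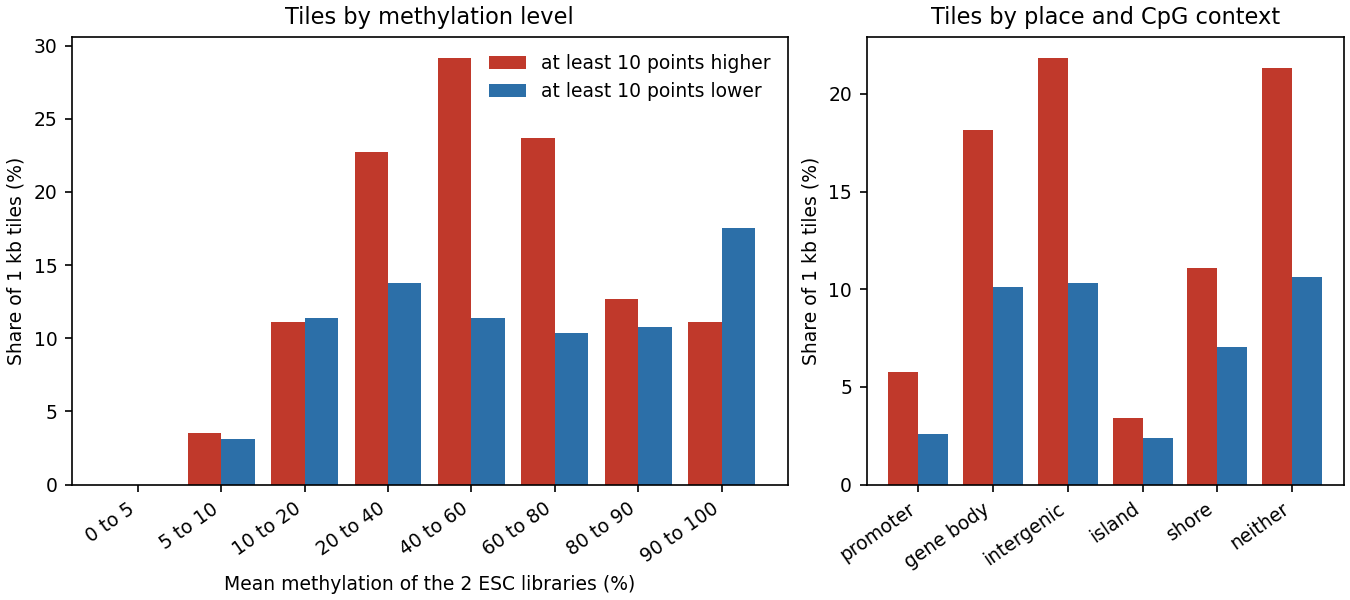
Share of 1 kb tiles (vertical axes, %) at least 10 points higher (red) or lower (blue) in Tet/Tet than in R1 ESCs, by the mean level of both libraries (left) and by gene part and CpG context (right). Higher tiles outnumbered lower tiles most at 40% to 60%, with 29.2% against 11.4%, and both were few in islands, with 3.43% and 2.39%.

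Neighbouring tiles differed in the same direction more often than tiles at large. After a higher tile, the next covered tile within 5 kb was higher in 21.4% of 5210 cases, against 9.96% after a tile that was neither higher nor lower. After a lower tile, the next was lower in 12.2% of 3461 cases, against 6.98%. The opposite direction was also more frequent beside differing tiles. After a lower tile the next was higher in 11.6%, against 9.96%, nearly as often as it was lower. After a higher tile the next was lower in 8.37%, against 6.98%. Tiles also share their level with their neighbours, which was not separated from these shares. Most differences were still single tiles, but a run could extend only to a covered tile within 5 kb. Such a next tile existed for 5210 of 16856 higher tiles and for 3461 of 8681 lower tiles. A single tile therefore does not show that a difference was isolated. Runs of at least 3 consecutive tiles past 10 points numbered 86 upward (74 of 3 tiles, 11 of 4 and 1 of 5) and 25 downward (21, 2 and 2).

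The longest upward run crossed Mest, which encodes a hydrolase-like protein and is an imprinted gene expressed from the paternal allele, at chr6:30732001-30743000. Its 61 shared sites went from 10.4% in R1 to 54.0% in Tet/Tet ESCs (SD 36.9), with 54 higher and 2 lower. Over the whole gene, 69 sites went from 16.4% to 54.2%. Among the 11 runs of 4 tiles, the one with the most sites, chr11:22971001-22975000, covered Zrsr1, an imprinted gene for a splicing-factor-like protein that lies in an intron of Commd1. There 72 of 73 sites were higher, and the mean went from 5.65% to 22.6% (SD 7.27), so the shift was narrow and nearly uniform. Tuba3a, a testis tubulin, lay in a run of 38 sites that went from 29.1% to 47.1% (SD 18.6). Runs in St3gal3, a sialyltransferase gene (32.2% to 56.7%, 37 sites, SD 30.6), Fgd6, which encodes an exchange factor for CDC42 (31.9% to 48.2%, 35 sites, SD 15.0), and Rbm20, a splicing regulator of muscle genes (47.3% to 61.1%, 37 sites, SD 27.6), lay inside the genes.

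The longest downward runs held 5 tiles, and the first of them crossed Samd11, which encodes a nuclear protein of photoreceptors, and the end of Noc2l at chr4:156245001-156256000. Of its 46 sites 45 were lower, and the mean went from 69.9% in R1 to 41.7% in Tet/Tet ESCs (SD 23.4). Inside MspI fragments the gene kept a difference of -19.8 points over 11 sites. The other run of 5 tiles lay in an intron of Gse1, with 44.1% and 21.9% over 33 sites (SD 23.2). Plcb3, a phospholipase C gene, had 39.0% and 14.1% over 39 sites (SD 22.6). H2afy, the gene of the histone variant macroH2A, had 64.4% and 47.2% over 35 sites (SD 25.8), and Sbno2 had 58.1% and 40.3% over 33 sites (SD 28.6). The lincRNA 2210420H20Rik on chromosome 18 completed this set, with 34.9% and 10.8% over 35 sites (SD 28.4). In R1 neurons the same 6 stretches ranged from 82.5% to 95.0%.

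Single tiles with at least 10 sites showed larger gaps. The largest upward gaps were at chr7:56690001-56691000, an intergenic tile wholly in repeats (30% to 98%), in an exon of Trappc11, a subunit of a vesicle tethering complex (3.33% to 70.8%), and in Mest (6.78% to 73.5%). An intergenic tile on chromosome 13 wholly in repeats (6.25% to 68.1%) and one on chromosome 8 partly in repeats (31.1% to 91.9%) followed. The chromosome 7 and Trappc11 tiles had no site inside MspI fragments of the chosen size. The largest downward gaps were in introns of Rora, a nuclear receptor (66.1% to 4.32%), and Tns1, a focal adhesion protein (72.8% to 14.9%), and in an exon of Mybl2, a transcription factor of the cell cycle (67.9% to 14.5%). All 14 sites of the Mybl2 tile and all 10 of the Rora and Tns1 tiles were lower. A repeat tile on chromosome 16 (70.0% to 16.7%) and a repeat in an intron of Vps13b (57.5% to 9.21%) completed this set.

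**Figure D3:**
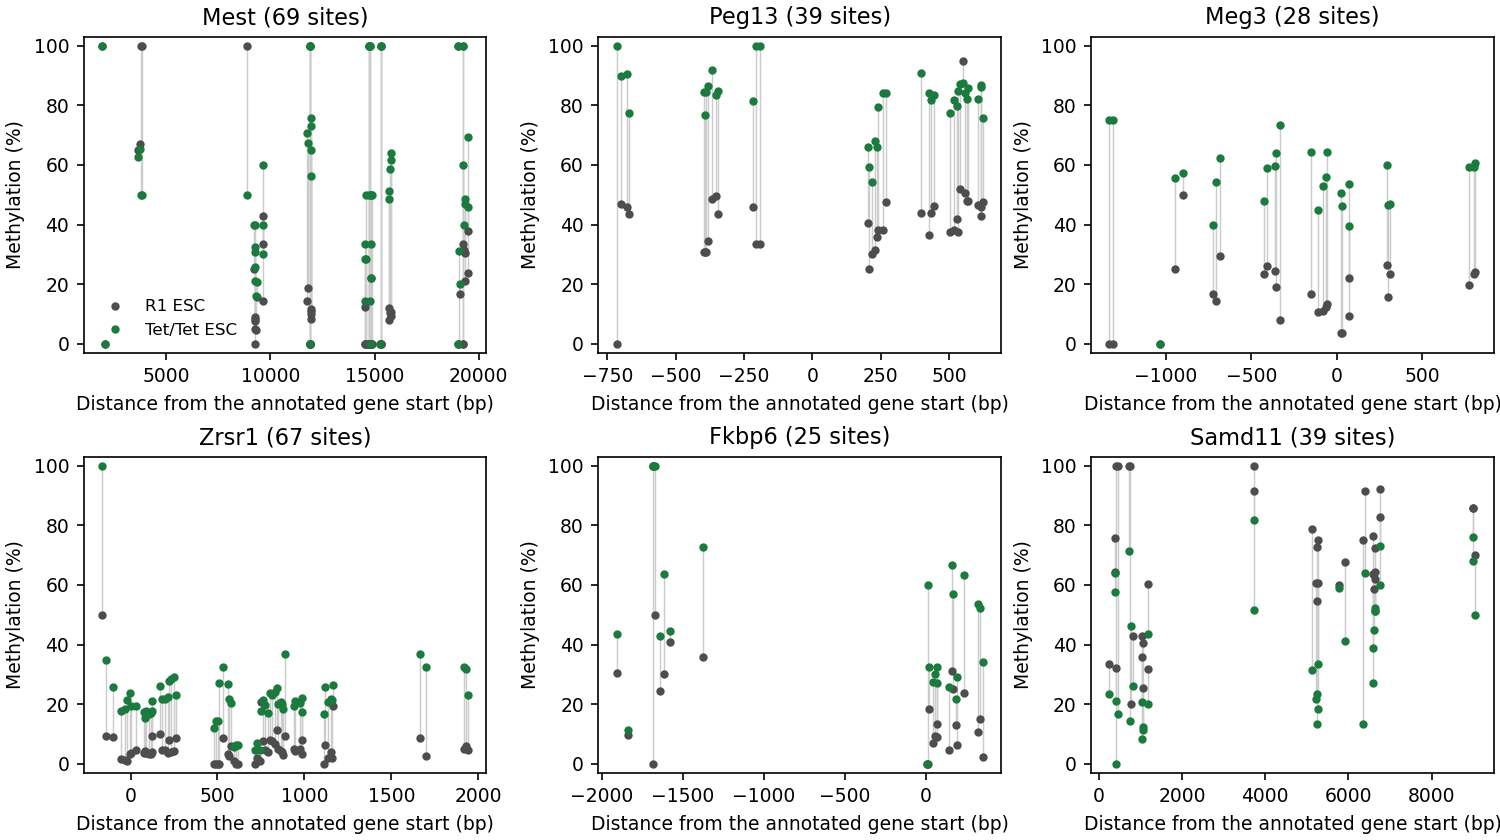
Methylation of each shared CpG site (vertical axis, %) in R1 ESCs (grey) and Tet/Tet ESCs (green) against its distance from the annotated gene start in the direction of transcription (horizontal axis, bp), with a thin line joining the values of a site. Nearly all sites of Meg3, Peg13 and Zrsr1 are higher in Tet/Tet ESCs, those of Mest spread from 0% to 100%, and nearly all sites of Samd11 are lower.

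For counts by gene, promoters were taken as 1 kb on each side of protein-coding gene starts. Of 21938 such promoters, 14334 had at least 5 shared sites. Of these, 373 (2.6%) were at least 10 points higher and 186 (1.3%) at least 10 points lower in Tet/Tet ESCs, and the median difference was 0.236 points. The differing promoters were mostly those without islands. Of 11149 promoters with over 50% of their sites in an island, 43 were higher (0.386%) and 27 lower (0.242%), at a mean level of 3.08% in R1. Of 2665 promoters with no site in an island, 324 were higher (12.2%) and 147 lower (5.52%), at 20.2% in R1. Over whole genes, 859 of 17248 (4.98%) were higher and 302 (1.75%) lower, with a median difference of 0.703 points. With sites inside MspI fragments alone, 140 promoters were higher and 31 lower, and 382 genes were higher and 55 lower, so the lower sets shrank more.

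The promoters named next have at least 10 shared sites, of which at least 80% differ in the direction of the mean. Such agreement was found in 299 of 12947 promoters, and 76 of them were at least 10 points higher and 15 at least 10 points lower. The largest difference was at Slc10a1, the bile acid uptake transporter of liver, with 21.4% in R1 and 73.6% in Tet/Tet ESCs over 10 sites (SD 50.9). Xdh, xanthine dehydrogenase, had 40% and 89.5% over 10 sites (SD 28.9). Pla1a, a phospholipase gene, had 24.5% and 60.4% over 10 sites (SD 33.5), and Ecm1, an extracellular matrix gene, had 14.2% and 47.9% over 12 sites (SD 30.3). These sites lay outside MspI fragments of the chosen size for Slc10a1, Xdh and Ecm1. The 2 fragment sites of Pla1a differed by 7.50 points, and those of Zfp229, a zinc finger gene with 12.1% and 42.7% over 10 sites (SD 32.6), by 6.36 points.

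The most uniform differences among the 10 were at Pdha2 and 1700123L14Rik. The promoter of Pdha2, the testis form of a pyruvate dehydrogenase subunit, lay fully in a CpG island and had 24.8% and 54.9% (SD 7.41), with all 15 sites higher. That of 1700123L14Rik had 24.6% and 59.5% (SD 7.84), with all 16 sites higher. 4933415F23Rik had 43.2% and 75.5% over 17 sites (SD 24.3). Restricted to fragments, these 3 differences were 32, 35 and 33.1 points. Map3k7cl (43.5% and 76.5% over 15 sites, SD 16.1) and Sh3rf2 (29.7% and 58.8% over 11 sites, SD 15.0) completed the 10 largest differences, and the 2 fragment sites of Map3k7cl differed by 21.8 points. All 10 of these promoters had over 92% methylation in R1 neurons.

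Among lower promoters, Samd11 led with 66.9% in R1 and 34.1% in Tet/Tet ESCs over 10 sites (SD 41.8). Gpihbp1, which carries lipoprotein lipase across capillaries, had 50.4% and 26.6% over 14 sites (SD 33.7). Sox10, a transcription factor of neural crest and oligodendrocytes, had 50.3% and 30.4% over 21 sites (SD 35.4). Meox1, a homeobox factor of somites, had 37.4% and 21.9% over 10 sites (SD 19), and the protocadherin Pcdha8 had 40.4% and 25.1% over 17 sites (SD 17.6). Wscd1 (16.6% and 1.00% over 16 sites, SD 33.9) and Ankrd53 (14.8% and 1.65% over 10 sites, SD 20.3) lay in CpG islands. Gm16181 had 16.1% and 3.32% with all 13 sites lower (SD 13.7), Rnf223 had 39.2% and 26.4% over 11 sites (SD 14.1), and Wfdc1 had 35.4% and 21.2% over 10 sites (SD 10.4). Inside MspI fragments 7 of these 10 differences were smaller than 10 points, at -9.83 for Samd11, -7.93 for Gpihbp1, -7.25 for Sox10, -8.56 for Meox1, -8.97 for Pcdha8, -1.40 for Wscd1 and -1.61 for Ankrd53. Wfdc1, Rnf223 and Gm16181 kept -12.4, -10.1 and -11.1 points.

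**Figure D4:**
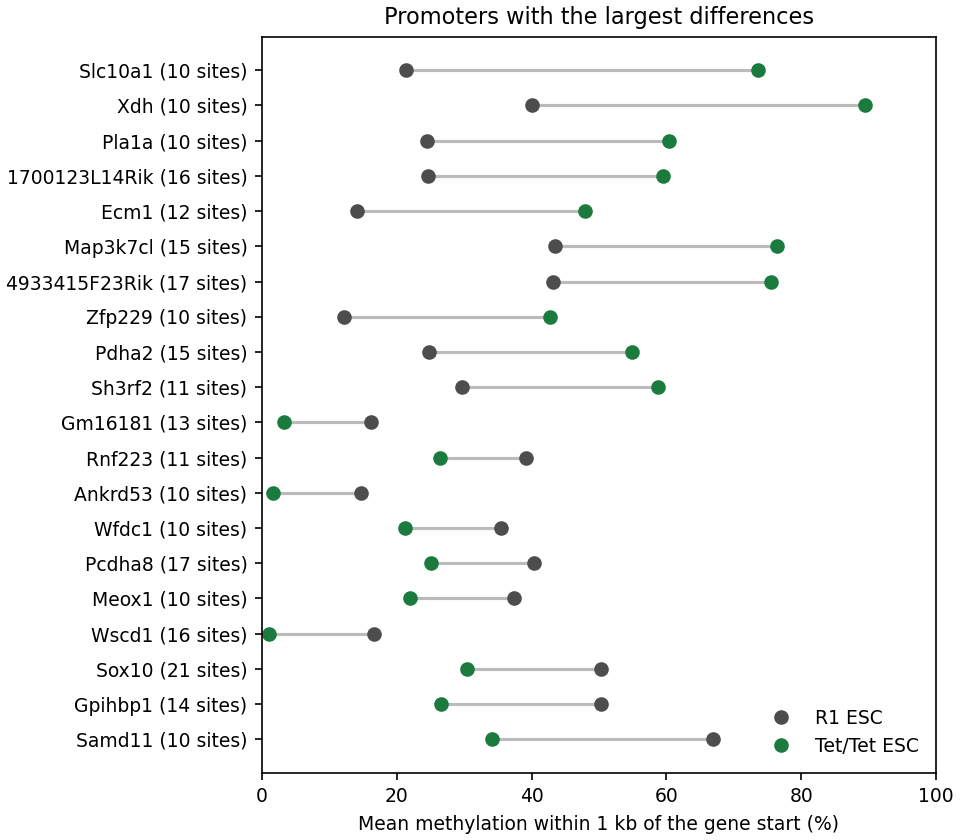
Mean promoter methylation (horizontal axis, %) in R1 ESCs (grey) and Tet/Tet ESCs (green) for the 10 promoters with the largest positive and the 10 with the largest negative difference, with the number of shared sites in brackets. Differences ran from 29.1 to 52.1 points among higher promoters and from -12.8 to -32.8 points among lower ones.

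Over whole genes with at least 20 shared sites, 105 of 14136 had at least 80% of sites in the direction of the mean, of which 36 were at least 10 points higher and 5 lower. After Mest, the largest upward differences were in AU022751, an X-linked gene (13% and 47.5%, with 57 of 58 sites higher, SD 17.5), and 1700123L14Rik (34.7% and 62.1% over 26 sites, SD 15.0). Trim32, a ubiquitin ligase gene (23.7% and 45.6% over 27 sites, SD 23.1), and Slc25a31, the germ cell form of the mitochondrial ADP/ATP carrier (15.7% and 37.3%, with 29 of 30 sites higher, SD 12.2), followed. After Samd11, the 4 other lower genes were Zfp872 (41.3% and 17.1% over 25 sites, SD 28.7), Prmt5, an arginine methyltransferase (56.2% and 40% over 35 sites, SD 21.6), Ptchd3 (20.6% and 6.18% over 23 sites, SD 37.1) and Plekhb1 (34.9% and 22.6% over 23 sites, SD 24.1). In MspI fragments Prmt5 kept -18.5 points, whereas Zfp872 had -8.17, Plekhb1 -3.54 and Ptchd3 -1.91 points.

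Imprinted promoters contained both directions. Of 80 imprinted genes listed, 62 had a covered promoter, of which 6 were at least 10 points higher (9.68%, beside 2.6% of all promoters) and 1 lower (1.61%, beside 1.3%). The median difference was 0.133 points beside 0.236 points over all promoters. The sets differ in kind, since all promoters are those of protein-coding genes. The imprinted list also holds noncoding genes, among them Peg13, Meg3, H19, Kcnq1ot1 and Airn. Peg13 had 41.2% in R1 and 82.4% in Tet/Tet ESCs, with 38 of 39 sites higher (SD 15.4). Meg3, the maternally expressed noncoding RNA of the Dlk1 domain, had 18.9% and 55.2%, with all 25 sites higher (SD 11.2). H19, the noncoding RNA next to Igf2, had 44.6% and 67.4% over 11 sites (SD 23.6), and its 5 fragment sites differed by 38.5 points. Kcnq1ot1, the antisense RNA of the Kcnq1 domain, had 3.81% and 21.4% over 7 sites (SD 1.56), and Zrsr1 had 5.55% and 21.4%, with 55 of 56 sites higher (SD 7.44). Th, a dopamine synthesis gene of the same imprinted region of chromosome 7, had 75.6% and 90.3% over 7 sites (SD 11.3), with a gap of 31.3 points at its 1 fragment site. These shifts started from very different R1 levels, and Peg13 and Th ended far above the middle of the scale.

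Lower values were found at other imprinted loci. Airn, the antisense RNA that silences Igf2r on its own allele, had 16.3% in R1 and 1.75% in Tet/Tet ESCs, with all 10 sites lower (SD 2.57). The following promoters were chosen after their values were seen. Nap1l5 had 10.9% and 3.04%, with all 16 sites lower (SD 2.51). Nnat had 12.6% and 21.7%, with 33 of 34 sites higher (SD 10.4), and differed by 4.88 points inside fragments. Peg3 had 11.2% and 3.85% over 10 sites (SD 13), of which 5 were lower and 1 higher, and its difference was -19.3 points at 4 fragment sites but turned to 1.07 points with 1 site per 100 bp. In R1 neurons Airn had 48.1%, Nap1l5 53.6%, Nnat 45.3% and Meg3 45.0%, levels near the middle that all 4 promoters lacked in R1 ESCs. Over whole genes, 16 of 80 imprinted genes, noncoding ones included, were at least 10 points higher (20%, beside 4.98% of protein-coding genes). In this set 1 gene was lower, and the median difference was 2.44 points, beside 0.703 points over protein-coding genes. Zim1 had 39.1% and 60.6% over 35 sites (SD 18.1) and Rtl1 had 62.3% and 74.6% over 59 sites (SD 26.1). Several of these genes overlap or share a domain and do not count separately.

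Germline promoters had a median difference of 2.49 points over 44 covered of 62 listed, beside 0.236 points over all promoters. Of the 44, 10 were at least 10 points higher (22.7%, beside 2.6% of all promoters) and 1 was lower (2.27%, beside 1.3%). Germline promoters had a median R1 level of 12.2%, whereas all promoters averaged 6.38%. Promoters with no site in an island averaged 20.2% in R1, and 12.2% of them were higher. The part of the starting level was not separated. Brdt, a testis bromodomain protein, had 35.9% in R1 and 76.0% in Tet/Tet ESCs over 14 sites (SD 40.8). Fkbp6, a piRNA pathway chaperone partner, had 11.8% and 38.3%, with 15 of 16 sites higher (SD 14.7). Tuba3b had 28.0% and 48.8% over 21 sites (SD 12.6), and Slc25a31 had 16.1% and 32.9%, with 40 of 45 sites higher (SD 13.5). Tuba3a and Tuba3b are near-identical copies, and reads could be split between them. The other higher promoters were those of Tex19.1 (10.2% and 26.3%), Taf7l, a germ cell form of a TFIID subunit (18.1% and 33.1%), Tuba3a (12.7% and 27.2%), Asz1 (24.7% and 38.5%), Mov10l1 (17.7% and 31.2%) and Nobox (49.5% and 61.3%). All 18 sites of Tuba3a, all 16 of Asz1 and all 6 of Nobox were higher. Inside fragments Tex19.1 differed by 6.67 points and Brdt by 22.2 points. The lower promoter was that of Zp3, a coat protein of the egg (25.6% and 12.7% over 9 sites, SD 18.7), whose 2 fragment sites differed by 0.621 points. Of the 44 germline promoters, 30 had a positive and 12 a negative difference. Dazl, an RNA-binding protein of germ cells (10.6% and 16.8%, 55 of 89 sites higher, SD 9.37), Sycp2, a synaptonemal complex protein (14.3% and 21.4%, 23 of 31 higher, SD 10.8), and Sohlh2 (10.8% and 17.8%, 28 of 38 higher, SD 7.75) were higher by less than 10 points. Ddx4, the germ cell helicase, had 8.09% and 7.22% over 41 sites (SD 5.31), and Prdm9, which places meiotic recombination, had 2.12% and 2.45% over 28 sites (SD 2.10). These 5 were chosen after their values were seen.

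X-linked promoters were higher in Tet/Tet ESCs more often than autosomal ones, a contrast given as counts without a test. At least 10 points more methylation was present at 30 of 449 promoters on chromosome X (6.68%), beside 341 of 13881 on autosomes (2.46%), and 6 were lower (1.34%, beside 1.30%). Among promoters with no site in an island, 23 of 138 on the X (16.7%) and 299 of 2523 on autosomes (11.9%) were higher. With over 50% of sites in an island, these were 7 of 290 (2.41%) and 36 of 10859 (0.332%). The X-linked Gm4779 and 8030474K03Rik, both among the 7, share the same 33 sites (13.2% and 24.2%). Shared windows were not merged in any of these counts. The examples that follow were chosen after their values were seen. AU022751 had 14.9% and 42.2%, with 42 of 43 sites higher (SD 19). Usp26, a testis deubiquitinase, had 16.5% and 37.9%, with 19 of 21 higher (SD 15.8), and Otud6a, another deubiquitinase gene, had 12.3% and 30.1%, with all 15 higher (SD 8.40). Xlr3b had 24.6% and 55.6% over 7 sites (SD 33.7), and Xlr3a, Xlr4a and Xlr4b were also higher, but these genes are close copies between which reads could be split. Of 34 Rhox genes, a cluster of X-linked homeobox genes of reproductive tissues, 6 promoters were covered and 2 were higher, Rhox2h (52.4% and 74.1% over 10 sites, SD 39.9) and Rhox9 (13.4% and 25.6% over 23 sites, SD 20.5). Rhox2h differed by 5.41 points inside fragments.

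No covered promoter of the pluripotency, lineage factor and Hox lists passed 10 points, which is near the shares of 2.6% and 1.3% over all promoters and of 0.386% and 0.242% over island promoters. Of 26 covered pluripotency promoters, of 38 lineage factor promoters and of 37 Hox promoters, none was 10 points higher or lower, and their median differences were -0.0598, 0.0242 and -0.560 points. The largest in the first list were Otx2 (11.1% and 3.20% over 26 sites, SD 29.1) and Pou5f1, which encodes OCT4 (1.90% and 8.91% over 15 sites, SD 12.0). The 6 fragment sites of Pou5f1 differed by -0.598 points, so its direction depended on the sites used. Gata4 had the largest lineage factor difference (42.0% and 47.5% over 9 sites, SD 12.4), and Hoxb2 the largest Hox difference (17% and 11.6% over 6 sites, SD 7.84). Inside fragments these were 0.814 and -1.88 points. As a check of the cell type label, 11 of 13 covered promoters of pluripotent cell markers were under 10% in each line, with medians of 3.39% in R1 and 2.48% in Tet/Tet ESCs. The exceptions were Dppa3 (39.1% and 43.6%) and Esrrb (42.8% and 42.6%). All 9 covered neuronal marker promoters were also under 10% in both lines, so low promoter methylation was shared by both marker sets, and no expression was measured.

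In the remaining lists the counts were small. Of 24 covered promoters of DNA methylation enzymes and readers, 1 was lower, Apobec1, where 1 of 6 sites differed (16.7% and 0%). Of 30 promoters of schizophrenia candidates, the condition to which the study relates DNMT1 overexpression, Gria1, a glutamate receptor subunit, was higher (19.8% and 35.9% over 6 sites, SD 27.4) and Sox10 was lower. Of 302 zinc finger Zfp promoters, 5 were higher (1.66%) and 2 lower (0.662%), beside 2.6% and 1.3% of all promoters. Zfp951 had 25.1% and 53.9% over 9 sites (SD 28.4), Zfp180 had 10.4% and 28.8% over 17 sites (SD 39.0), and Zfp780b had 20.1% and 1.49% over 11 sites (SD 40.4), a direction that turned inside fragments. Clustered protocadherins had 2 higher (5.26%) and 3 lower (7.89%) of 38, beside the same 2.6% and 1.3%. Pcdhga7, Pcdhga12 and the lower of the Pcdha11 entries each had 5 or 6 sites of which 1 differed. Another annotated entry of Pcdha11 went from 4.23% to 9.28% over 9 sites, with 4 higher and 0 lower. Of 42 histone promoters Hist1h3g alone was higher (2.22% and 20.3% over 9 sites, SD 32.4). Olfactory and vomeronasal receptors, which lie in CpG-poor DNA, had only 13 covered promoters, with 1 higher (Olfr284, 59.1% and 75.7%, with 26.1 points inside fragments) and 1 lower (Olfr1298, 37.2% and 21%, with -29.8 points inside fragments), but 39 of 122 of their genes were higher (32%, beside 4.98% of all genes) and 14 lower (11.5%, beside 1.75%). These genes had a median level of 50.8% in R1 ESCs, in the range where tiles differed most often.

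**Figure D5:**
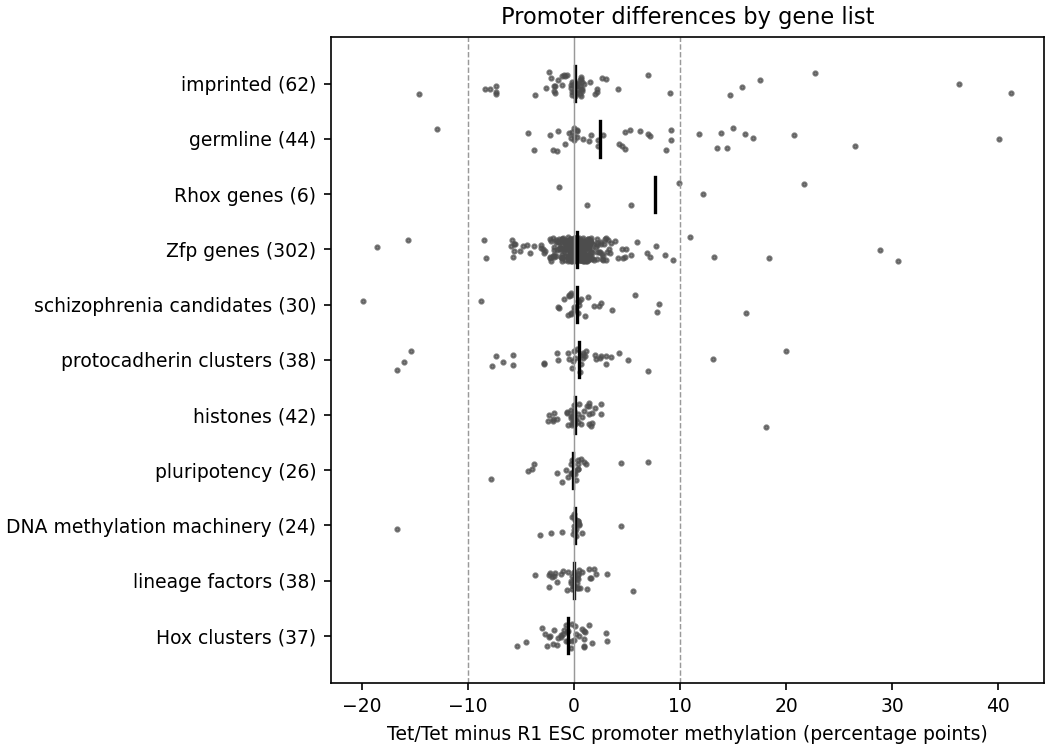
Tet/Tet minus R1 difference of promoter methylation (horizontal axis, percentage points) for each covered promoter of 11 gene lists, with the number covered in brackets, a bar at the median and dashed lines at 10 points to either side. Imprinted and germline promoters reach 41.2 and 40.1 points, and none of the pluripotency, lineage factor and Hox promoters passes 10 points.

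Dnmt1, the modified gene, lies on the minus strand at chr9:20907209-20959888. Over its 169 shared sites the level was 39.3% in R1 and 35.2% in Tet/Tet ESCs, a difference of -4.14 points (SD 32.1), with 76 sites higher and 80 lower. Inside fragments the difference was -0.680 points over 84 sites. The promoter window around the outermost annotated start held 1 shared site and was not covered. The paper describes a restriction assay of bisulfite-treated DNA for a region downstream of the Dnmt1 promoter. It reports digestion for Tet/Tet neurons but for neither ESC line. The place of that region among the tiles given next is not known here. Of 13 covered tiles, the one with the island, chr9:20952001-20953000, went from 2.06% to 7.11% over 38 sites, of which 32 were higher and 5 lower. Tiles in the gene body went mostly the other way, with 9 lower and 2 higher among the 11 between the gene's 3′ end and chr9:20943001-20944000, where the mean gap was largest (45.0% and 17.2% over 8 sites) although 5 of the 8 sites were higher. The inserted cassettes are absent from the mm10 sequence, so their own methylation was not analysed here.

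Levels in R1 neurons were alike at tiles that differed in either direction. Tiles higher in Tet/Tet ESCs averaged 89.7% in R1 neurons, lower tiles 87.1%, and tiles at 20% to 80% that were neither averaged 90.2%. In the part of the genome listed for Tet/Tet neurons, these 3 sets averaged 18.3%, 17.2% and 18.3% in that library.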

How the data were processed

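The authors trimmed reads with Trim Galore 0.6.4, checked them with FastQC 0.11.8, mapped them to mm10 with Bismark 0.19.0 and called CpGs with MethylDackel 0.3.0, according to the submitters' processing notes. Each deposited table is a track of the percent of reads that kept a cytosine at every CpG, without read totals and without normalization between libraries. The study gives library totals and an average coverage, but the reads behind each site are unknown here.

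Differences were taken as Tet/Tet minus R1 at sites listed for both ESC lines on chromosomes 1 to 19, X and Y. Region levels were unweighted means over at least 5 shared sites. A difference of 10 points was used as a size threshold, with no test. Genes came from GENCODE release M21. CpG islands had to exceed 200 bp, reach 50% GC and have a ratio of observed to expected CpGs over 0.6. Printed sequence came from the GRCm38 assembly. Python 3.11.15, numpy 2.4.6, pandas 2.3.3, numba 0.67.0 and matplotlib 3.10.9 were used, and the region calculation was tested on simulated data.

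Named were Dnmt1; the 10 largest differences a side among protein-coding promoters with at least 10 sites and 80% of sites one way; 5 a side for genes with at least 20 sites and for tiles with at least 10 sites; the 6 longest runs a side; and up to 4 promoters per list. Exceptions are stated where they stand. Members, lists and thresholds were chosen with earlier results of these data known. Alternatives were the sites used, the minimum number of sites, the size threshold, the median, 1 site per 100 bp, autosomes, and the tile and promoter windows.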

Additional observations from a re-analysis of the deposited data

Results flagged for a closer look

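The difference between the lines was not alike in the 2 cell types. Over 1545651 CpG sites present in all 4 tables, Tet/Tet minus R1 was 1.35 points in ESCs and -42.4 points in neurons, so the neuron difference minus the ESC difference was -43.8 points. This was not tested, since each condition had 1 library. The names of the raw read files have different prefixes for the ESC pair and the neuron pair, and the meaning of these prefixes is not stated. Both neuron libraries held values for 83091 of the 103856 tiles, so the compared sites leave out part of the genome.

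Mitochondrial CpG sites, which entered no comparison, averaged 7.37% over 111 sites in Tet/Tet ESCs and 3.19% over 90 sites in R1 ESCs. The sites are those each library listed.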

How the results depend on the processing

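Counts are given as higher and lower in Tet/Tet ESCs. Tiles numbered 16856 and 8681, and became 4906 and 1406 inside MspI fragments, 2919 and 1208 with at least 10 sites, 165 and 97 with at least 20 sites, 3132 and 1593 at 25 points, and 2223 and 1472 with 1 site per 100 bp. Promoters numbered 373 and 186, and became 140 and 31 inside fragments, 157 and 72 with at least 10 sites, 32 and 14 with at least 20 sites, and 60 and 22 at 25 points. With 1 site per 100 bp 298 promoters were lower, and with 1 kb upstream only 240 were higher. Genes numbered 859 and 302, and became 382 and 55 inside fragments, 310 and 56 with at least 20 sites, 91 and 31 at 25 points, and 1495 and 709 with 1 site per 100 bp. With at least 10 sites 163 genes were lower, and with site medians 1480 were higher. Stricter settings test fewer or larger differences by construction, and otherwise the cause was not tested. Higher regions outnumbered lower ones under each of these settings, but their share of the differing regions moved, for tiles from 66.0% to 77.7%, for promoters from 66.7% to 81.9% and for genes from 74.0% to 87.4% inside fragments, and for promoters to 55.6% with 1 site per 100 bp. The mean site difference of 1.37 points became a median of 0, and 4.66 points over each library's own sites. Directions turned inside fragments for Pou5f1 (-0.598), Zfp780b (0.601) and Zp3 (0.621), with site medians for Syn1 (1.19, from -3.69), and with 1 site per 100 bp for Zfp780b (0.481) and Peg3 (1.07). No paired analysis was possible because each condition had 1 library and the labels carry no replicate numbers, and for the same reason no library could be left out. Without read totals, a difference at few sites cannot be told from sampling of reads.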
